A study of Mus musculus with 188 samples.

Results

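The 10 genes described here, *Nqo1*, *Osgin1*, *Ephx1*, *Cat*, *Esd*, *Adh7*, *Cyb5a*, *Cbr3*, *Abcc1* and *Aox1*, are detoxification and redox genes of the mouse that the transcription factor NRF2 is known to induce or that are commonly listed with its targets. They were selected by symbol, from the 25711 gene identifiers in the count files, with results of these same libraries already known. Their changes over control, their differences between treated groups and the number of them past a threshold therefore describe these libraries. These values are no independent test of a rise or of a difference. Not all encode enzymes, because *Abcc1* encodes an export pump and *Osgin1* a growth-regulating stress protein. All 10 were found in every count file and all 10 passed the filter on low counts in both sets of libraries. In 1 of the sets *Adh7* passed it only through treated libraries.

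NRF2 is held in the cytosol by KEAP1, which marks it for degradation. Electrophiles and oxidants modify KEAP1, NRF2 then accumulates in the nucleus, pairs with small MAF proteins and binds antioxidant response elements near its target genes. BACH1, a repressor at the same elements, is released from them when it binds heme, so heme can reach this gene program by more than one route.

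RNA-seq libraries came from organotypic brain slice cultures, coronal slices of brain kept on membrane inserts, prepared from young adult wild-type C57BL/6J mice of both sexes. On the seventh day in culture the slices were left untreated or exposed to heme-albumin (12.5, 50, 200 or 400 µM, 24 h), to heme bound to hemopexin (hemeHpx, 200 µM, 24 h), to free hemoglobin (Hb, 200 or 400 µM, 24 or 48 h), to the hemoglobin-haptoglobin complex (HbHp, 200 or 400 µM, 24 or 48 h), or to haptoglobin alone (Hp, 400 µM, 24 or 48 h). All groups share the strain and carry no genetic change, and the hemoglobin, heme and carrier proteins added were human. The hemeHpx group rests on the treatment label and library name, since the titles of those libraries speak of haptoglobin. Of 188 libraries, 167 carried a label that gave a group: 60 in sequencing batch 1, with 10 in each of the control, heme-albumin and hemeHpx groups, and 47 in batch 2 and 60 in batch 3, with the Hb, HbHp, Hp and their own control groups. The labels do not say which libraries came from separate animals, so adjusted p-values measure the spread between these libraries, which may be partly technical.

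Total gene counts ran from 11038484 to 44199060 in batch 1, from 32626873 to 54174784 in batch 2 and from 15587938 to 38839614 in batch 3. The 5 astrocyte markers summed to 6112 to 10580 CPM (counts scaled to a common library total) and the 5 oligodendrocyte markers to 13040 to 24370 CPM in batch 1 controls, whereas the 5 neuron markers (*Rbfox3*, *Syt1*, *Snap25*, *Slc17a7*, *Gad1*) summed to only 27.61 to 87.95 CPM. In bulk RNA, fewer cells of a type and less RNA per cell cannot be told apart.

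Levels are given as CPM scaled by TMM, a factor that aligns the libraries of one set, and batch 1 was scaled apart from batches 2 and 3. A gene is called where edgeR gave an adjusted p under 0.05 (quasi-likelihood F test, adjusted by Benjamini-Hochberg over all genes of the set), and the share of all tested genes called in the same comparison is given beside the members' counts. Per kilobase of exon, the mean control level in batch 1 ran from 69.9 CPM per kb for *Ephx1*, through 53.73 for *Cat*, 43.43 for *Esd* and 27.32 for *Cyb5a*, to 8.254 for *Cbr3*, 6.98 for *Nqo1*, 4.877 for *Aox1*, 4.3 for *Abcc1* and 2.421 for *Osgin1*. *Adh7* was by far the lowest, at 0.09892 CPM per kb, which came to 2 to 16 reads per control library, with a median of 4. *Ephx1*, *Adh7*, *Cyb5a* and *Abcc1* each overlap another annotated gene, antisense for *Adh7* and *Cyb5a*, and whether the counting used strand is not given in the sources used here.

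RefSeq promoter sequences (GRCm38.p6, a build other than that of the count files) were at hand for 8 of the 10 genes, and are shown for 3 members that hold the letters TGAGTCA and for *Nqo1*. The core of the antioxidant response element, TGACNNNGC on either strand, was found in none of these 8 windows of 250 bases before to 50 bases after the annotated start, and in 12.4% of all 32851 windows. Among 21 other known NRF2 targets with a window, 11 held it. The letters TGAGTCA, which AP-1 and small MAF dimers can bind and which, read on the other strand, can form the first letters of the element, were found on either strand for *Osgin1*, *Adh7* and *Aox1*, and in 5.2% of all windows. Absence of a match says only that these letters are not in this window. Shown 5′ to 3′ on the gene's strand are the 250 bases before the start of *Osgin1* (chr8:119436897-119437146, plus strand), *Adh7* (chr3:138217523-138217772, plus strand) and *Aox1* (chr1:58029719-58029968, plus strand), with the 7-letter match in capitals (TGACTCA is the same match read on the other strand):
Osgin1: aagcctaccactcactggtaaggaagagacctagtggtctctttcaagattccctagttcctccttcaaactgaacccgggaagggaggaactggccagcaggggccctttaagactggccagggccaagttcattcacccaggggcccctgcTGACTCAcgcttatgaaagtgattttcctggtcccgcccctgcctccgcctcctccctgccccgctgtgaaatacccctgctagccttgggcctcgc
Adh7: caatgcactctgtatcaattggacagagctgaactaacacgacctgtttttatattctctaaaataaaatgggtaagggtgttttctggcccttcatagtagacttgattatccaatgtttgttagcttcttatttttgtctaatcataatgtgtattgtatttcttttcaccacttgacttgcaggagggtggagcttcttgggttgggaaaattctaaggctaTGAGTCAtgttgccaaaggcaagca
Aox1: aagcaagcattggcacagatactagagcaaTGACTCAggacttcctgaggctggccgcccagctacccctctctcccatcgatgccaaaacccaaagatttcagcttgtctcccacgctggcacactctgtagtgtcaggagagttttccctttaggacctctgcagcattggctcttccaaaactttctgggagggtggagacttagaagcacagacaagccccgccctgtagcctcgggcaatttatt
The match lies at -97 to -91 from the start in *Osgin1*, at -25 to -19 in *Adh7* and at -220 to -214 in *Aox1*. For *Nqo1* (chr8:107403206-107403455, minus strand), the usual reference gene for NRF2 activity, the capitals mark both GC boxes (GGGCGG on either strand, found in 7 of the 8 members and in 35.7% of all windows) and the TATA box (TATAAA on either strand, 3 of 8 members and 13.6% of all windows) that starts at -29:
Nqo1: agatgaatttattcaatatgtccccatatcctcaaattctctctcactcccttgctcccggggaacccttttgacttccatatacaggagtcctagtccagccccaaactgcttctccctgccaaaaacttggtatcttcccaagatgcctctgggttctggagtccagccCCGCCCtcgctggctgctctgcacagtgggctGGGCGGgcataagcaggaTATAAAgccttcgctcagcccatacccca

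Heme-albumin raised the levels of these genes step by step over the dose series. Relative to control, 2 members were called at 12.5 µM (*Osgin1* and *Ephx1*, 0.045% of all 15554 tested genes called), 10 at 50 µM (0.463%), 10 at 200 µM (13.6%) and 10 at 400 µM (29%), every called member being higher. The median log2 fold change of the 10 was 0.26, 0.41, 0.59 and 0.80 at the successive doses, whereas the median over all tested genes stayed between -0.01 and 0.00. At 50 µM the lowest of 10 treated libraries exceeded the highest of 10 controls for 3 members (*Nqo1*, *Osgin1*, *Esd*; 0.0772% of tested genes), and at 400 µM for 9 members, all but *Aox1* (1.37% of tested genes).

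**Figure D1:**
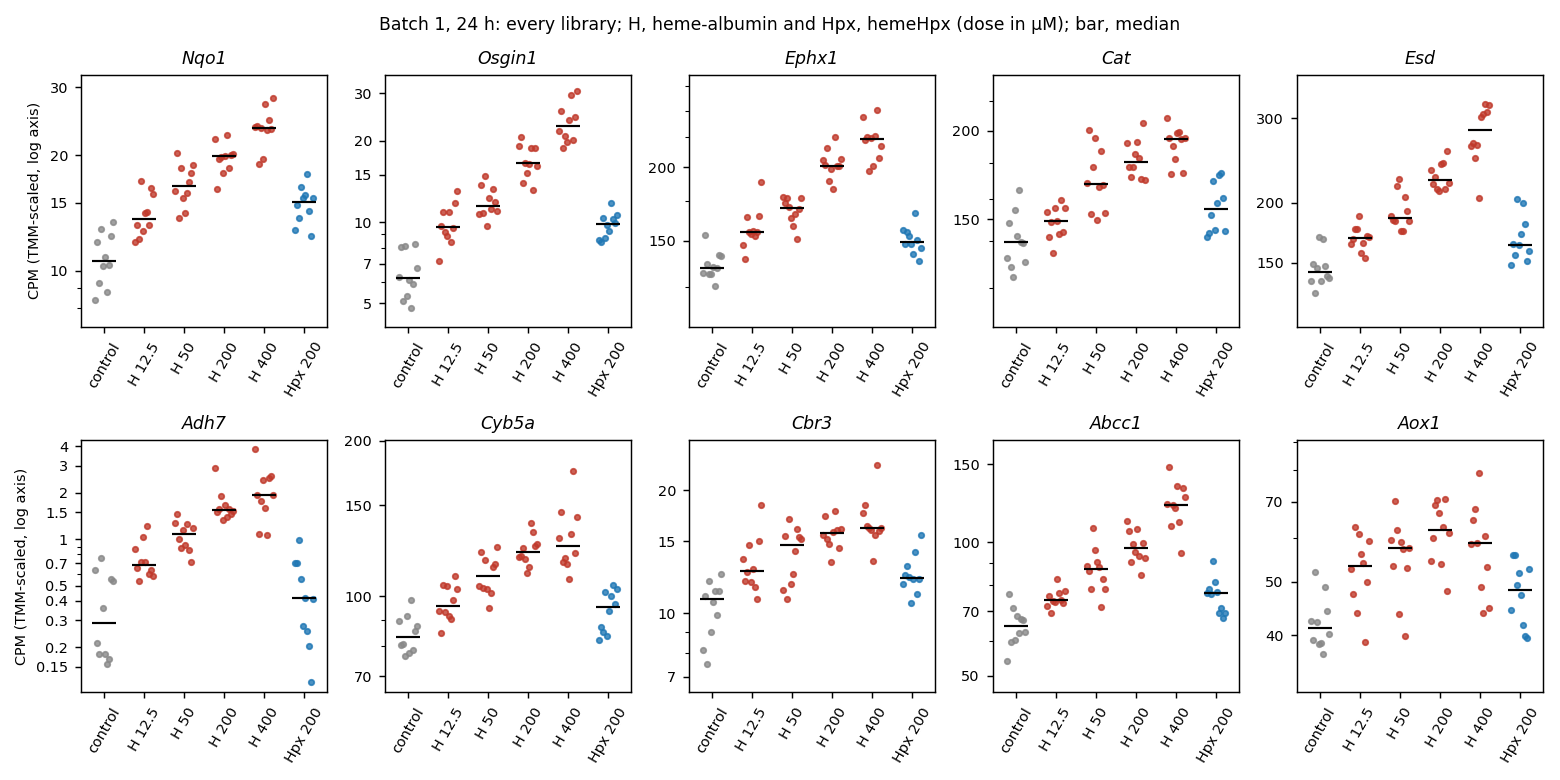
Level of each of the 10 genes in every batch 1 library (y axis, CPM on a log axis; x axis, group with dose in µM; n = 10 libraries a group; bar, median). *Osgin1* climbs from a control median of 6.176 to 22.76 CPM at 400 µM, while *Aox1* levels off from 50 µM and the hemeHpx libraries sit low for all genes.

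*Nqo1* encodes the quinone reductase that turns reactive quinones into hydroquinones. In control slices it ranged from 8.377 to 13.41 CPM (median 10.6), and the range moved to 11.86 to 17.16 (median 13.65) at 12.5 µM heme-albumin, 13.72 to 20.24 (16.56) at 50 µM, 16.29 to 22.49 (19.85) at 200 µM and 18.9 to 28.19 (23.57) at 400 µM. From 50 µM on no treated library fell within the control range. The log2 fold changes were 0.37 ± 0.08, 0.62 ± 0.08, 0.85 ± 0.08 and 1.12 ± 0.08 (SE, n = 10), the last a 2.168-fold rise.

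*Osgin1*, which slows cell growth under oxidative stress, had the steepest course among members above 1 CPM. Its control range of 4.794 to 8.308 CPM (median 6.176) rose to 7.164 to 13.02 (9.552), 9.656 to 14.85 (11.51), 13.19 to 20.71 (16.48) and 18.86 to 30.62 (22.76) at the 4 doses. The log2 fold change reached 1.85 ± 0.10 at 400 µM, or 3.606-fold, and its treated libraries stood apart from every control from 50 µM on.

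*Adh7*, the class IV alcohol dehydrogenase that oxidises retinol and ethanol, showed the widest fold change from the lowest base. Controls lay between 0.1572 and 0.7566 CPM (median 0.2865), in contrast to 1.061 to 3.839 CPM (median 1.936) at 400 µM, a log2 fold change of 2.38 ± 0.26. Counts were small, from 2 to 16 reads per control library and from 24 to 84 at 400 µM, and its SE was the largest of the 10. The control median of 4 reads was under the filter's smallest count of 10, against medians of 17 to 45.5 at the heme-albumin doses. In batch 1 *Adh7* thus passed the filter through treated libraries, so its calls there are no test of a rise.

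The carbonyl and epoxide enzymes moved less in fold, *Ephx1* and *Esd* from higher levels and *Cbr3* from a level near that of *Nqo1*. *Ephx1*, the microsomal epoxide hydrolase, went from 125.5 to 153 CPM in controls (median 134.9) to 197.4 to 250.5 (median 223.5) at 400 µM, and its 50 and 200 µM ranges, up to 177.8 and from 183.9 CPM, did not meet. *Esd*, the S-formylglutathione hydrolase of formaldehyde detoxification, moved from 129.3 to 169.6 (143.1) to 204.7 to 322.3 CPM (284.2). *Cbr3*, an NADPH-dependent carbonyl reductase, moved from 7.545 to 12.46 (10.87) to 13.44 to 23.09 CPM (16.17). The log2 fold changes at 400 µM were 0.70 ± 0.04, 0.94 ± 0.06 and 0.70 ± 0.09 in this order.

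Both heme-containing members also rose. *Cat*, the peroxisomal catalase that breaks down hydrogen peroxide, had the smallest change, from 124.4 to 164.8 CPM (median 139.2) in controls to 173.7 to 208.6 CPM (194.7) at 400 µM, with a log2 fold change of 0.45 ± 0.05. *Cyb5a*, which carries electrons to desaturases and cytochromes P450, rose from 76.66 to 98.63 (83.42) to 108.3 to 174.8 CPM (125.4), a log2 fold change of 0.62 ± 0.06.

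*Abcc1*, the pump that exports glutathione and its conjugates, rose from 53.98 to 76.58 CPM (64.83) to 94.48 to 148 CPM (121.7), a log2 fold change of 0.91 ± 0.06. *Aox1*, the molybdenum-dependent aldehyde oxidase, was the exception in shape. Its control range of 37.02 to 52.09 CPM (41.24) became 39.85 to 70.31 (57.54) at 50 µM, 48.12 to 70.69 (62.19) at 200 µM and 43.99 to 78.86 (58.8) at 400 µM, so treated and control libraries overlapped at every dose. Its log2 fold changes were 0.39 ± 0.09, 0.55 ± 0.09 and 0.46 ± 0.09.

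**Figure D2:**
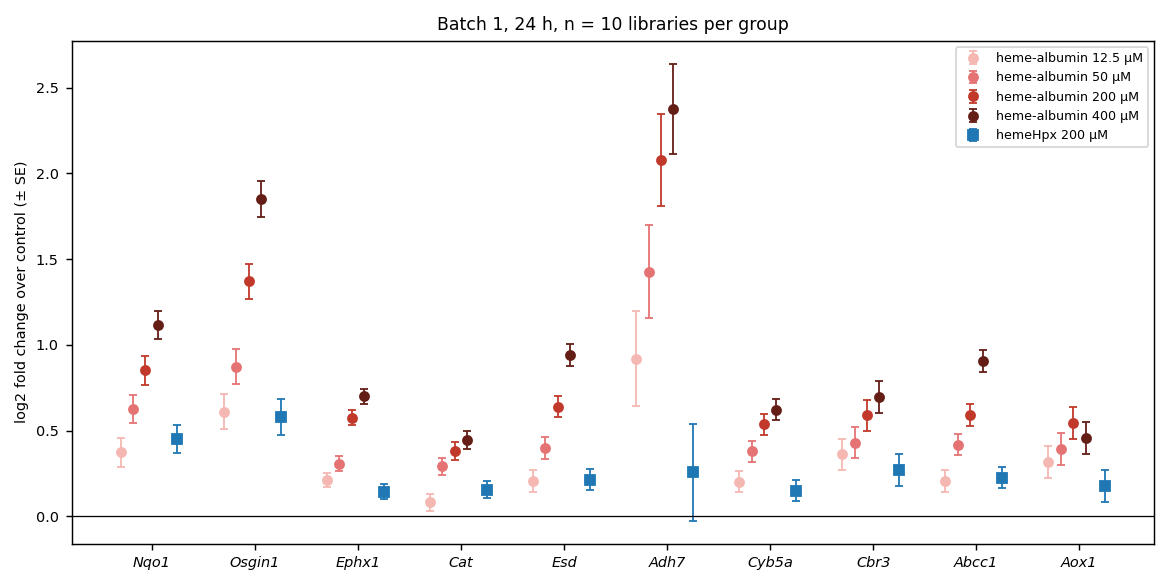
Log2 fold change over control (y axis, with its SE) of each gene at 4 heme-albumin doses (reds) and with hemeHpx 200 µM (blue squares), 24 h, n = 10 libraries a group. The hemeHpx point lies below the heme-albumin 200 µM point for all 10 genes, and *Aox1* alone has a lower point at 400 µM than at 200 µM.

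As a share of the log2 change at 400 µM, the change at 50 µM ranged from 42.3% (*Esd*) to 86.4% (*Aox1*), with a median of 58%, and the change at 200 µM from 65.2% (*Abcc1*) to 120% (*Aox1*). The mean level rose at each dose for 9 members. Between 200 and 400 µM the step itself passed the test for 3 members, where 1.27% of tested genes were called (edgeR): *Osgin1* (log2 difference 0.48 ± 0.10, adjusted p = 0.003978), *Abcc1* (0.32 ± 0.06, adjusted p = 0.002625) and *Esd* (0.30 ± 0.06, adjusted p = 0.004435). The step for *Nqo1* was 0.27 ± 0.08 (adjusted p = 0.08724) and for *Aox1* -0.09 ± 0.09 (adjusted p = 0.7875). When each gene's groups were ordered by median, neighbouring doses overlapped for all 10 genes except *Ephx1* between 50 and 200 µM.

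Hemopexin, the plasma protein that binds heme tightly and carries it to the liver, was present with the same heme dose in the hemeHpx group. Compared with control, 6 members were called with hemeHpx 200 µM (8.2% of tested genes called), all higher. Compared with heme-albumin 200 µM all 10 were called lower (25.9% of tested genes called). The heme-albumin 200 µM and hemeHpx libraries may have taken part in choosing the members, so both counts are descriptive. *Nqo1* ranged from 12.29 to 17.88 CPM (median 15.14) with hemeHpx, overlapping both the control range and that of heme-albumin 200 µM. *Osgin1* ranged from 8.447 to 11.77 CPM (9.835), just above the highest control and below the lowest heme-albumin 200 µM library, and it was the 1 member with every hemeHpx library above every control (0.0643% of tested genes).

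The difference between hemeHpx and heme-albumin at 200 µM was widest for *Adh7*, whose hemeHpx libraries, at 0.1202 to 0.9917 CPM (median 0.4148), overlapped the control range of 0.1572 to 0.7566 CPM and all lay below the heme-albumin libraries, at 1.337 to 2.898 CPM. The log2 difference was -1.82 ± 0.25 for *Adh7*, -0.79 ± 0.10 for *Osgin1*, -0.43 ± 0.04 for *Ephx1*, -0.43 ± 0.06 for *Esd*, -0.40 ± 0.08 for *Nqo1* and between -0.39 and -0.23 for the other 5. The hemeHpx change as a share of the heme-albumin change ranged from 12.3% for *Adh7* to 53% for *Nqo1*, with a median of 35.7%. With no filter on low counts 2 members were called over control in place of 6, and the shares were not tested against each other. The median change of the 10 with hemeHpx, 0.22, lay below their median of 0.26 at 12.5 µM heme-albumin.

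The rest of the NRF2 program followed the same doses. Of 26 other NRF2 targets, 2 were called higher at 12.5 µM, 14 at 50 µM, 22 at 200 µM and 23 at 400 µM, where 2 were lower (0.0386%, 0.45%, 6.98% and 14.7% of all tested genes were higher at these doses), and their median log2 fold change at 400 µM was 0.57. At that dose the widest changes were those of *Slc7a11*, the cystine importer (1.90 ± 0.15), *Hmox1*, heme oxygenase 1 (1.76 ± 0.19), *Srxn1*, sulfiredoxin (1.76 ± 0.09), and *Gsta3*, a glutathione transferase (1.65 ± 0.21). With hemeHpx 10 of the 26 were higher (3.77% of tested genes) and 0 lower. Among 8 regulators of the pathway 7 were higher at 400 µM, led by the small MAF genes *Maff* (1.26 ± 0.16) and *Mafg* (0.60 ± 0.07), whereas *Nfe2l2*, which encodes NRF2 (0.27 ± 0.09), *Keap1* (0.26 ± 0.08) and *Bach1* (0.23 ± 0.07) were each below the smallest change among the 10, that of *Cat*.

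Of 15 tested family members 0 were called higher at 400 µM heme-albumin and 3 lower, where 14.7% of all tested genes were higher and 14.3% lower, so the lower count is near the background. By name these were *Ephx2*, the soluble epoxide hydrolase (-0.76 ± 0.15), *Cbr4* (-0.20 ± 0.07) and *Nqo2* (-0.20 ± 0.05). *Osgin2* (0.00 ± 0.06), *Adh5* (-0.01 ± 0.04), *Cyb5b* (-0.02 ± 0.06), *Cbr1* (-0.02 ± 0.05) and *Abcc5* (-0.02 ± 0.04) were not called. For *Adh7*, 2 of 9 other genes of retinoid metabolism were higher (*Aldh1a3*, 1.14 ± 0.41, and *Crabp2*, 0.73 ± 0.19) and 2 lower (*Dhrs3* and *Cyp26b1*). Of 6 genes induced by the aryl hydrocarbon receptor, 4 were higher, led by *Cyp1a1* (1.44 ± 0.47). None of the 6 was called with hemeHpx, where 3.77% of tested genes were higher and 4.44% lower, so that count is near the background.

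**Figure D3:**
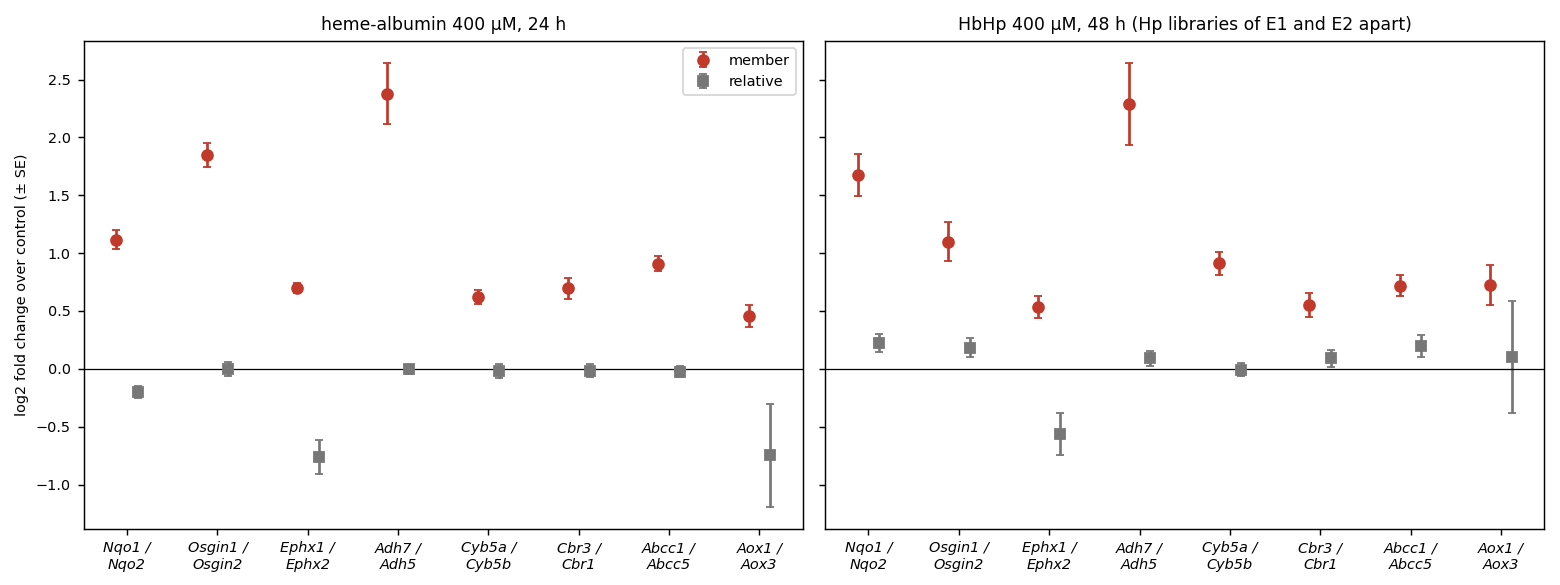
Log2 fold change over control with its SE (y axis) for the members other than *Cat* and *Esd*, and for a relative of each where tested. The comparisons are heme-albumin 400 µM for 24 h and HbHp 400 µM for 48 h, the latter with the Hp libraries of E1 and E2 fitted apart. *Nqo1* stands at 1.12 and 1.67 in the 2 comparisons, whereas *Nqo2* stands at -0.20 in the first.

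Cell type markers moved at the same doses, where 6.98% and 14.7% of tested genes were higher and 6.6% and 14.3% lower. At 200 µM heme-albumin 4 of 5 microglia markers were lower, led by *Cx3cr1* (-1.36), and their summed level ran from 33.25 to 81.31 CPM against 52.95 to 180.2 CPM in controls. At 400 µM the microglia sum was 31.22 to 108.6 CPM. At this dose 3 of 5 astrocyte markers were lower (*Aqp4*, *Gfap* and *Gja1*), with sums of 4758 to 8554 CPM against 6112 to 10580 CPM. Of 5 neuron markers 1, *Slc17a7*, was higher (1.66 ± 0.57), at a median of only 0.6403 CPM over batch 1. The neuron sum, 23.09 to 117.9 CPM, overlapped that of controls (27.61 to 87.95 CPM). With hemeHpx none of these markers was called, which is near the background of 3.77% of tested genes higher and 4.44% lower. Their part in the members' values was not tested.

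Before the hemoglobin series, a feature of its libraries has to be stated. Library names carry E1 or E2, and the libraries labelled Hp 400 µM differed between the E1 and E2 names for most of the 10 genes. At 48 h *Nqo1* was at 26.27, 28.59, 31.33, 53.09 and 40.36 CPM in the 5 E1 libraries and between 8.05 and 12.85 CPM in the 6 E2 libraries, against 7.146 to 13.76 CPM in the 9 controls of that time. The 2 E2 controls among these were at 7.146 and 7.279 CPM, below all 6 E2 libraries labelled Hp. *Adh7* ran from 1.179 to 2.392 CPM in E1 and from 0.1113 to 0.5061 CPM in E2, and *Esd* from 289.7 to 383.2 and from 211 to 247.4 CPM. Every E1 library lay above every E2 library for 10 members at 48 h (8.05% of tested genes) and for 7 at 24 h (8.47%). These counts use levels without adjustment, so they also hold differences between E1 and E2 controls. At 24 h the E1 and E2 controls were apart for *Aox1* (21.72 to 31.53 and 12.62 to 19.37 CPM) and *Cbr3* (11.82 to 13.44 and 8.934 to 10.52). Those of *Nqo1* overlapped (8.864 to 12.95 and 7.628 to 15.17 CPM).

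With the E1 and E2 libraries labelled Hp fitted as separate groups, a fit chosen after seeing the data, all 10 members were called higher than control in E1 at 24 h (1.77% of 16473 tested genes called) and at 48 h (17%). None was called by edgeR in E2 at 24 h (0.0304%) or 48 h (0.273%), where 1 and 2 members had an unadjusted p under 0.05. The difference between both responses passed the test (edgeR) for 6 members at 24 h (0.34% of tested genes) and 9 at 48 h (3.74%). It was 1.74 ± 0.19 for *Nqo1* (adjusted p = 1.779e-10) and 2.10 ± 0.37 for *Adh7* (adjusted p = 0.0001141) at 48 h, and *Cbr3* missed the threshold (0.34 ± 0.11, adjusted p = 0.05786). In E2 the *Nqo1* change at 48 h was 0.07 ± 0.18 with a 95% interval of -0.283 to 0.4159. A fit of E2 libraries alone, with 2 controls at 48 h, called 0 members for Hp over control at either time (edgeR). In that fit the median change was 0.11 at 24 h, with 0 members at an unadjusted p under 0.05. At 48 h the median was 0.28, with 9 members above control and 4 at an unadjusted p under 0.05. Only 1 control library in batch 3 carries an E1 name at each time, with *Nqo1* at 10.14 CPM (24 h) and 10.47 CPM (48 h), so the E1 response rests largely on controls of batch 2. What sets the E1 libraries apart was not tested, and whether their label is right cannot be told from these files.

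**Figure D4:**
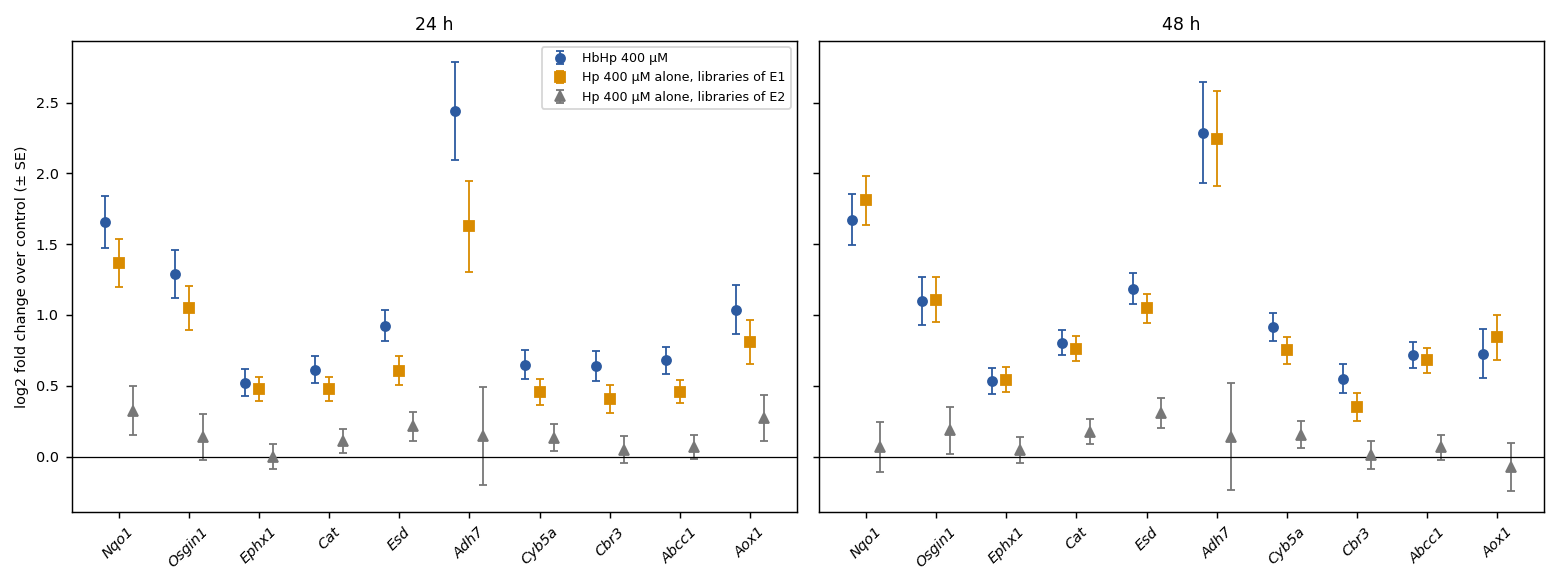
Log2 fold change over control with its SE (y axis) of each gene for HbHp 400 µM and for the libraries labelled Hp 400 µM of E1 and of E2, at 24 h and 48 h. The E2 points run from -0.07 to 0.32, below the E1 points of the same gene, with *Nqo1* at 1.81 in E1 and 0.07 in E2 at 48 h.

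Because of this split, values for the hemoglobin series are given with all libraries labelled Hp as 1 group and, second, with E1 and E2 apart. All HbHp libraries are of batch 3 and E2, which hold 1 control at each time, so batch and HbHp are only partly separable, and the fits carried terms for batch and for E1 or E2. The E2 term was itself called for 68.0% of tested genes, 7 members among them, and for 62.7% with E1 and E2 apart, 6 members among them. *Aox1* was lower in E2 by -0.90 ± 0.08 (edgeR adjusted p = 7.784e-17) and *Cat* higher by 0.22 ± 0.04 (adjusted p = 2.261e-06) in the latter fit.

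Free hemoglobin was followed by higher levels of most of the 10 genes at both times. With Hb 200 µM at 24 h, 2 members were called (0.0971% of tested genes), or 9 with E1 and E2 apart (0.237%) and 1 without Hb 200 µM replicate 5, and with Hb 400 µM 10 (0.522%). At 48 h 9 members were called with 200 µM (0.31%) and 9 with 400 µM (0.601%), or 10 with E1 and E2 apart (0.692%), all higher. These 48 h counts were 3 and 4 in E2 alone and 5 and 6 in E1 alone, and 3 for 200 µM with the batch term only. *Nqo1* lay between 7.146 and 13.76 CPM (median 10.47) in controls at 48 h, between 12.61 and 26.74 CPM (18.53) with Hb 200 µM and between 14.07 and 29.39 CPM (22.23) with Hb 400 µM. Its log2 fold change at 48 h was 0.94 ± 0.19 with 200 µM, or 0.89 ± 0.13 with E1 and E2 apart. *Cat* was the least moved, at 0.26 and 0.28 with the 2 doses at 48 h.

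With HbHp all 10 members were called at 200 µM at 24 h (1.93% of tested genes, or 9 and 1.24% with E1 and E2 apart). All 10 were also called at 400 µM at 24 h (5.15%), and at 200 and 400 µM at 48 h (both 11.9%). In E2 alone these 4 counts were 5, 10, 9 and 10. Among E2 libraries alone, every HbHp 400 µM library exceeded every control for 10 members at 24 h (4 libraries against 3, 4.26% of tested genes) and at 48 h (5 against 2, 12.7%). *Nqo1* was at 30.62, 35.43, 34.5, 26.62 and 26.32 CPM in the 5 HbHp 400 µM libraries at 48 h, above all 9 controls. The log2 fold change was 1.97 ± 0.25, or 1.67 ± 0.18 with E1 and E2 apart, the latter a 3.186-fold rise. Among E2 libraries at 48 h the microglia marker sum was 145.7 to 241.6 CPM with HbHp 200 µM and 145.9 to 316.8 CPM with 400 µM. The 2 controls were at 354.3 and 497.7 CPM. The neuron sum was 32.27 to 121.7 and 54.63 to 92.34 CPM against 115 and 210.1 CPM, so the 200 µM range overlapped. All 9 controls at 48 h, E1 included, spanned 56.7 to 497.7 CPM for microglia and 27.8 to 210.1 CPM for neurons. At 24 h the HbHp microglia sums (110.3 to 209.4 and 110.2 to 196.8 CPM) lay within those of the E2 controls (102.3 to 224.6 CPM). The part of these marker sums in the members' values was not tested.

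**Figure D5:**
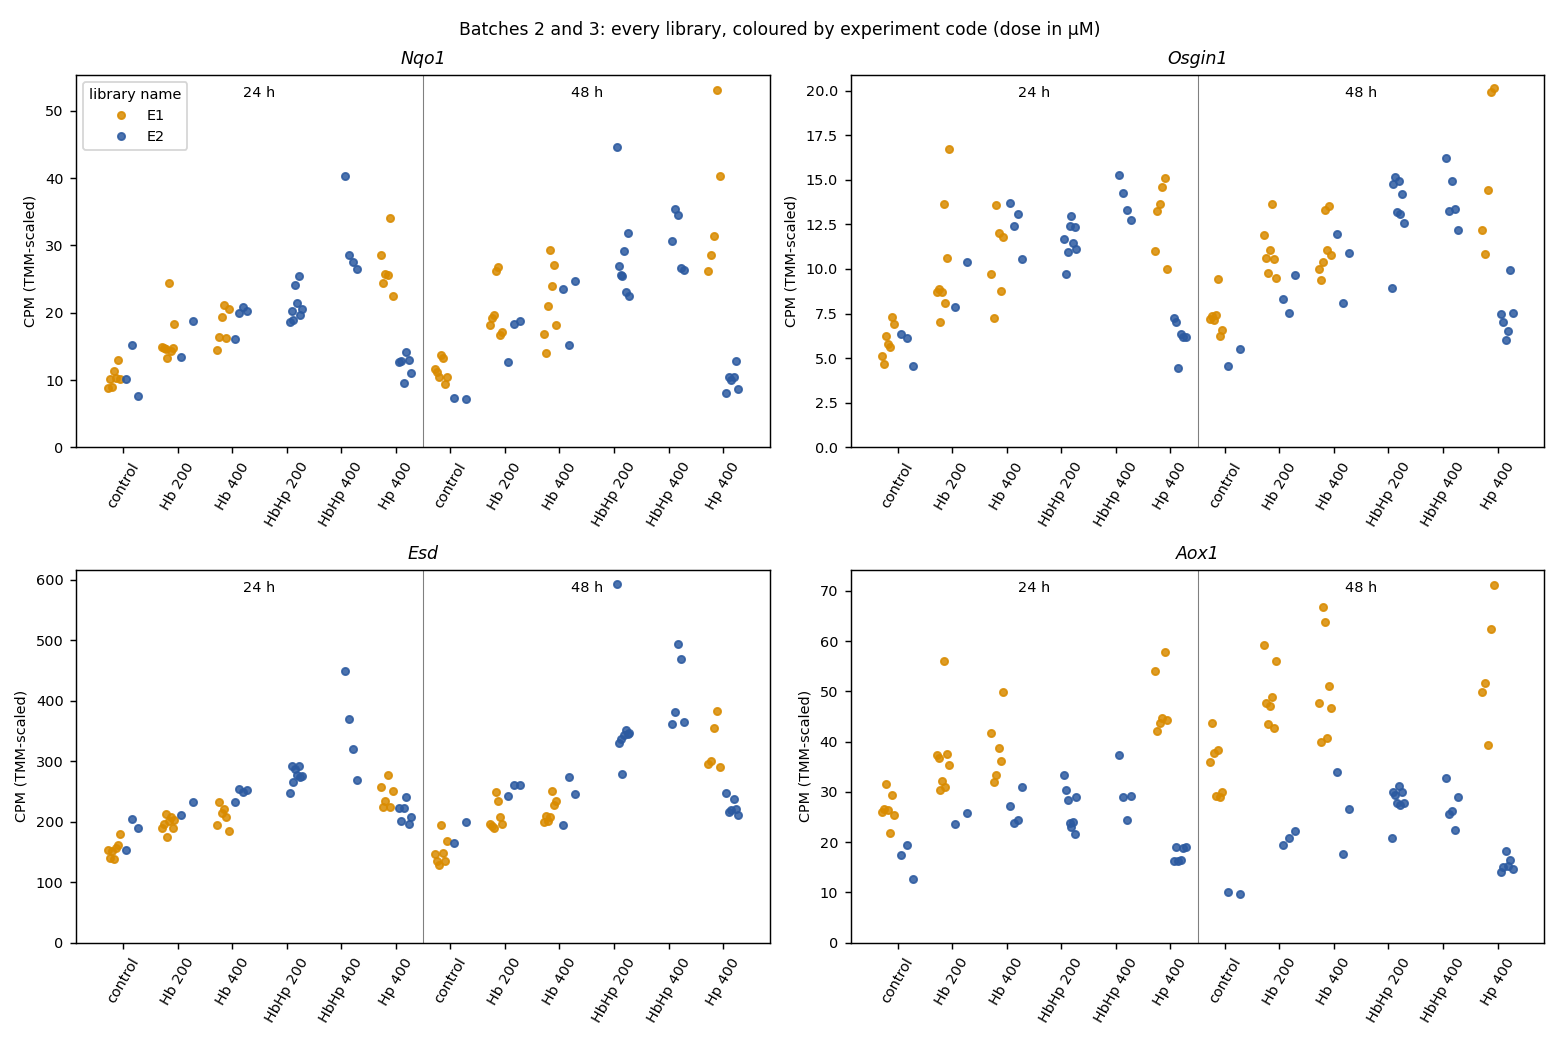
Level of *Nqo1*, *Osgin1*, *Esd* and *Aox1* in every library of batches 2 and 3 (y axis, CPM from 0; x axis, group and time; colour, E1 or E2 in the library name). The HbHp libraries of *Nqo1* and *Esd* at 48 h all lie above the controls of that time, and for *Aox1* the 2 colours differ within the controls.

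*Esd* was the member above 100 CPM with the widest change, at 361.9, 381.2, 493.9, 469.9 and 364.4 CPM with HbHp 400 µM at 48 h against 128.8 to 199 CPM (median 147.7) in controls. Its log2 fold change was 1.30 ± 0.13, or 1.19 ± 0.11 with E1 and E2 apart. *Cat* ran from 273.4 to 328.9 CPM against 127.2 to 179.4 CPM, with 0.90 and 0.81, and *Cyb5a* from 144.5 to 158.2 CPM against 62.63 to 87.17 CPM, with 1.01 and 0.91. The groups did not overlap for any of the 3. *Ephx1*, at 150.6 to 194.8 CPM against 86.83 to 149.6 CPM, had 0.64 and 0.53.

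*Adh7* again had the widest fold change, at 1.072, 2.08, 1.893, 1.106 and 1.952 CPM with HbHp 400 µM against 0.1178 to 0.7059 CPM in controls at 48 h, with a log2 fold change of 2.69 ± 0.42, or 2.29 ± 0.36. *Osgin1*, at 16.22, 13.24, 14.92, 13.39 and 12.2 CPM against 4.555 to 9.439 CPM, reached 1.31 ± 0.20, or 1.10 ± 0.17. *Abcc1* ran from 100.2 to 138.7 CPM against 62.46 to 73.6 CPM and *Cbr3* from 16.56 to 18.32 CPM against 10.99 to 14.44 CPM, neither overlapping.

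*Aox1* is the member whose direction over control turned when batch and the E1 or E2 term were both left out. Its controls at 48 h were at 29.06 to 43.66 CPM in E1 and at 9.776 and 10.1 CPM in E2, and HbHp 400 µM libraries, all of E2, at 22.35 to 32.77 CPM. The log2 fold change was 0.90 with the term, 0.73 ± 0.17 with E1 and E2 apart, and -0.1133 with neither batch nor E1 or E2 in the fit. In E2 libraries alone, with 2 controls at 48 h, it was 1.43 ± 0.20.

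Against the same dose of free Hb, HbHp 200 µM had 0 members called at 24 h (edgeR, 0.607% of tested genes called, with 7 members at an unadjusted p under 0.05 and 2 called by DESeq2) and 6 at 48 h (4.98%), or 4 with E1 and E2 apart (3.99%): *Nqo1* (0.69 ± 0.16), *Esd* (0.52 ± 0.10), *Cat* (0.44 ± 0.08) and *Cyb5a* (0.41 ± 0.09). As a share of the HbHp change at 200 µM and 48 h in that fit, the Hb change ranged from 35.9% for *Cat* to 72.6% for *Aox1*, with a median of 58.9%. The *Aox1* share rests on changes that turn direction without the terms (-0.06678 for HbHp 200 µM over control with neither term, and -0.4256 over Hb with the batch term only). The HbHp 200 µM group at 48 h holds 1 library far from the rest for 7 members. Without it *Nqo1* and the other 9 were still all called over control, while calls over all genes fell from 1959 to 1199 for HbHp over control and from 821 to 332 for HbHp over Hb, or from 658 to 201 with E1 and E2 apart. In libraries of E2 alone 1 member was called for HbHp over Hb at 48 h.

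Haptoglobin alone is the control for the protein in the complex. Against all libraries labelled Hp, HbHp 400 µM had 8 members called higher at 24 h (0.619% of tested genes) and 6 at 48 h (1.44%), and the pooled libraries labelled Hp 3 over control at 24 h (0.704%) and 9 at 48 h (10.8%), all from fits that mix E1 and E2. Without HbHp 400 µM 24 h replicate 1 the first of these counts was 0. Against the E2 libraries labelled Hp alone, which share batch and E2 with HbHp, all 10 were called at 24 h (1.09%) and at 48 h (3.2%). The log2 difference at 48 h was 1.60 ± 0.17 for *Nqo1* (edgeR adjusted p = 2.243e-11), 0.88 ± 0.10 for *Esd* (adjusted p = 3.089e-10) and 2.15 ± 0.34 for *Adh7* (adjusted p = 5.406e-06), and the smallest was that of *Ephx1*, 0.49 ± 0.09 (adjusted p = 8.64e-05).

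The step from 200 to 400 µM was not called for the 10 genes in this series when all libraries labelled Hp formed 1 group. Hb 400 against 200 µM gave 0 called members and 0 called genes by edgeR at 24 h (0.0% of tested genes) and 48 h (0.0%), with 2 and 0 members at an unadjusted p under 0.05 and 0 by DESeq2. HbHp 400 against 200 µM gave 0 members at 24 h (0.176%) and 48 h (0.127%), with 4 and 1 members at an unadjusted p under 0.05 and 0 by DESeq2, although with E1 and E2 apart *Abcc1* passed at 24 h (0.40 ± 0.09, edgeR adjusted p = 0.01353). When groups were ordered by median, neighbours overlapped for every member except *Cyb5a* between HbHp 200 and 400 µM at 24 h.

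Untreated slices were compared between the times. Of the 10 members 0 were called between controls at 48 h and 24 h (4.5% of tested genes, edgeR), 0 at an unadjusted p under 0.05 and 0 by DESeq2, the differences running from -0.39 ± 0.31 for *Adh7* to 0.16 ± 0.15 for *Osgin1*. Within E1 and within E2 the *Aox1* difference had opposite signs, 0.37 ± 0.13 in E1 (edgeR adjusted p = 0.1326) and -0.72 ± 0.20 in E2 (edgeR adjusted p = 0.05595), the latter with 3 and 2 libraries. The response at 48 h against 24 h was tested for Hb 200 µM (0.0% of tested genes, 0 members by edgeR) and HbHp 200 µM (0.0121%, 0 members by edgeR), with 0 and 3 members at an unadjusted p under 0.05 and 0 by DESeq2. For HbHp it was 0.53 ± 0.27 for *Nqo1* (adjusted p = 0.4945) and 0.45 ± 0.14 for *Esd* (adjusted p = 0.2684).

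The difference between the Hp responses of E1 and E2 at 48 h was called, higher in E1, for 19 of the 26 other NRF2 targets (1.54% of tested genes). With E1 and E2 apart, 20 of the 26 other NRF2 targets were called higher with HbHp 400 µM at 48 h, led by *Gsta3* (2.59 ± 0.29) and the peroxiredoxin *Prdx1* (1.81 ± 0.14), 21 in the E1 libraries labelled Hp and 0 in the E2 ones, against 6.57%, 7.61% and 0.182% of tested genes higher. Of the 8 regulators 5 were higher with HbHp 400 µM at 48 h. Among 17 tested relatives 0 were higher and 2 lower with HbHp 400 µM, *Cbr2* (-1.53 ± 0.40) and *Ephx2* (-0.56 ± 0.18), where 3.25% of tested genes were lower.

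Across the mean levels of 18 conditions, 6 in batch 1 and the rest in batches 2 and 3, 9 members followed the mean of the other 9, with Pearson's r from 0.835 (*Cat*) to 0.976 (*Cbr3*), while *Aox1* had 0.407. Of 13876 genes the mean profile of the 10 was most like that of *Slc40a1* (r = 0.988), *Gclm* (0.981), *Sod1* (0.968), *Ikbkg* (0.967) and *Ypel5* (0.953), and *Nqo1* alone was most like *Hmox1* (0.963). The points share libraries, scaling and controls, so these values are descriptive. Conditions also differ in their make-up of E1 and E2, the HbHp ones being all E2, and *Aox1* had the widest E2 term of the 10 (-0.90 with E1 and E2 apart). Its part in the r of *Aox1* was not tested.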

How the data were processed

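RNA was taken from brain slice cultures and sequenced as poly(A) libraries. The deposited files hold the authors' raw count per gene and library. The submitters' processing notes name featureCounts and GRCm39, and the aligner, the annotation release, strandedness and versions are not given in the sources used here. The 10 genes and the comparison lists were chosen with earlier results of these data known. Genes were kept by filterByExpr (smallest count 10, smallest total 15), scaled by TMM and tested by edgeR's quasi-likelihood test (edgeR 4.0.16, R 4.3.3) on batch 1 (60 libraries, 15554 genes) and on batches 2 and 3 (47 and 60 libraries, 16473 genes, terms for batch and for E1 or E2), with Benjamini-Hochberg adjustment. DESeq2 1.42.0, RLE scaling, other filters, terms or library sets, left-out replicates and a replicate block were alternatives. All 10 members were named, and of each other list at most the 4 widest called changes. Also named were *Nfe2l2*, *Keap1* and *Bach1*, and a relative of each member other than *Cat* and *Esd*. The 5 genes with the highest Pearson's r on log2(CPM + 0.5) condition means were named too. Total counts ran from 11038484 to 54174784 per library and limit precision for *Adh7*. In simulated data for heme-albumin 400 µM (15554 genes) 71% of changes of 0.5 and 92% of changes of 1 (log2) were recovered, and for HbHp 400 µM at 48 h (16473 genes) 50% and 72%. None of 630 pairs of libraries of 1 group and batch agreed within sampling noise. The 21 libraries without a clear group entered no fit and no test. Tables were handled in Python 3.11.15. The list of peroxisomal genes is not reported here.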

Additional observations from a re-analysis of the deposited data

Results flagged for a closer look

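Of 160 groups of 4 to 10 libraries tested for a sample far from the others, 16 held one, and chance alone gives about 1 in 20 groups. HbHp 200 µM 48 h replicate 1 accounted for 7 of them: it was the highest of its group for *Nqo1* (44.58 CPM, nearest other 31.83), *Esd* (593.4, nearest 351), *Cyb5a* (219.2, nearest 144.4) and *Cbr3* (28.71, nearest 18.29), and the lowest for *Osgin1* (8.93, nearest 12.59), *Abcc1* (61.75, nearest 91.56) and *Aox1* (20.83, nearest 27.4). Hb 200 µM 24 h replicate 5 was the highest for *Nqo1* (24.44 CPM, nearest 18.81) and *Aox1* (56.04, nearest 37.48).

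The other 7 were single values. *Ephx1* was at 189 CPM in heme-albumin 12.5 µM replicate 10, *Adh7* at 2.898 CPM in heme-albumin 200 µM replicate 1 and *Cbr3* at 23.09 CPM in heme-albumin 400 µM replicate 8. *Nqo1* was at 40.27 CPM in HbHp 400 µM 24 h replicate 1, *Abcc1* at 105.1 CPM in Hb 400 µM 24 h replicate 6 and *Adh7* at 0.9694 CPM in control 24 h replicate 8 of batches 2 and 3. *Cbr3* was lowest in HbHp 400 µM 48 h replicate 3, at 16.56 CPM.

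The response of libraries labelled Hp differed between E1 and E2 in a fit of the difference itself (edgeR, adjusted p under 0.05), always higher in E1. The split into E1 and E2 was chosen after seeing these values, so the differences are descriptive and no independent test. At 24 h the log2 difference was 1.044 for *Nqo1*, 0.9103 for *Osgin1*, 0.4791 for *Ephx1*, 0.3689 for *Cat*, 1.479 for *Adh7* and 0.3907 for *Abcc1*. At 48 h it was 1.742 for *Nqo1*, 0.9229 for *Osgin1*, 0.4953 for *Ephx1*, 0.5855 for *Cat*, 0.7393 for *Esd*, 2.105 for *Adh7*, 0.5954 for *Cyb5a*, 0.6154 for *Abcc1* and 0.9128 for *Aox1*.

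In 20 libraries whose labels give no clear group and whose names carry Hpx or HbHpx, all 20 lay above all 19 controls of batches 2 and 3 for 4 genes, as CPM of total counts (0.652% of 19160 genes with 15 or more reads in these libraries). The lowest was 15.14 CPM for *Nqo1* (highest control 14.91), 10.86 for *Osgin1* (10.04), 232.7 for *Esd* (200.5) and 86.07 for *Abcc1* (74.26). Fewer lay above every control for *Ephx1* (16), *Adh7* (11), *Cbr3* (8), *Cat* (4), *Aox1* (4) and *Cyb5a* (0, median 76.77 against 77.07 CPM in controls). All 20 are of batch 3, 14 with E1 and Hpx in the name and 6 with E2 and HbHpx, and both times are mixed. Batch 3 holds only 1 control of E1 and 1 of E2 at each time, and the other controls are of batch 2. Batch and the Hpx or HbHpx name are thus only partly separable in these counts, and the part of batch was not tested. These libraries are not replicates of a known group and were not tested.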

How the results depend on the processing

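At heme-albumin 50, 200 and 400 µM and for hemeHpx against heme-albumin the count of members called stayed within 1.5 times under every alternative run, as did 283 of the counts recomputed, while 44 did not. For heme-albumin 12.5 µM against control (2 members) the count was 1 with no filter and 4 with a replicate block, and for hemeHpx against control (6) it was 2 with no filter. The labels do not say what the library-name codes mark. Libraries of the same code had a median correlation of 0.192 in batch 1 (-0.0101 for other codes, 55.6% of same-code pairs over 0.1). It was 0.0611 in batches 2 and 3 (-0.00498, 42.6%). Same-code libraries were thus more alike than others, more so in batch 1. Since the meaning of the codes is not given, the main fits assumed no pairing, and a block on the code was an alternative. The replicate block raised calls over all genes for hemeHpx from 1276 to 3706 and otherwise kept each count of members within 1.5 times.

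The hemoglobin series depended on the terms, and the cause was not tested. With the batch term only, the counts were 1 for Hb 200 µM at 24 h (2), 5 for Hb 400 µM at 24 h (10), 6 for HbHp 200 µM at 24 h (10), 0 for Hp at 24 h (3), 2 for HbHp against Hb at 24 h (0), 4 for HbHp against Hp at 24 h (8), 3 for Hb 200 µM at 48 h (9), 3 for HbHp against Hb at 48 h (6) and 3 for HbHp against Hp at 48 h (6). With neither term they were 1, 5, 6 (Hp at 24 h), 3 (HbHp against Hb at 24 h), 4, 3 (Hb 200 µM at 48 h) and 3 (HbHp against Hp at 48 h). In E2 alone they were 0, 6 and 5 for Hb 200, Hb 400 and HbHp 200 µM at 24 h, 0 for Hp at both times, 3 and 4 for Hb 200 and 400 µM at 48 h, 1 for HbHp against Hb and 10 for HbHp against Hp at 48 h. In E1 alone they were 4 and 5 for Hb 200 µM at 24 and 48 h and 9 for Hp at 24 h. With the Hp libraries split, Hb 200 µM at 24 h gave 9 and HbHp 400 against 200 µM at 24 h gave 1, or 8 and 2 also without HbHp 200 µM 48 h replicate 1. DESeq2 gave 5 for Hp at 24 h and 2 for HbHp against Hb at 24 h, and a minimum of 10 counts in every library gave 1 for the latter. The fits of E1 alone, of the split Hp libraries and without the far libraries were chosen after seeing the data.

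Leaving out 1 replicate moved counts as follows: 1 to 8 for Hb 200 µM at 24 h, 0 to 2 for HbHp against Hb at 24 h, 0 to 2 for HbHp 400 against 200 µM at 24 h, and 0 to 8 for HbHp 400 µM against Hp at 24 h, the 0 being without HbHp 400 µM 24 h replicate 1 and 5 without replicate 2. All 10 members stayed called for HbHp 400 µM against control in each. The fit without HbHp 200 µM 48 h replicate 1 that gave 8 for Hb 200 µM also split the Hp libraries, and the split alone gave 9. That fit gave 2 for HbHp 400 against 200 µM at 24 h, where the split alone gave 1.

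Direction turned for *Aox1* with the batch term only or neither term: HbHp against Hb at 24 h (-0.2597 and -0.3736) and 48 h (-0.4256 and -0.5421), HbHp against Hp at 24 h (-0.1263 in both) and 48 h (-0.3055 in both), and, with neither, HbHp 200 µM (-0.06678) and 400 µM (-0.1133) at 48 h. It also turned for *Ephx1* (Hp at 24 h in E2 alone, -0.07876; HbHp against Hb at 24 h, -0.1095 and -0.05321) and *Cbr3* (-0.04745 with the batch term for HbHp against Hb at 24 h, -0.04081 for Hp at 48 h in E2 alone).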
